A study of Mus musculus with 10 samples.

Results

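The genes described here are the clustered histone genes of the mouse, 67 of the 22329 rows of the deposited expression table. They were chosen by symbol, as every row whose name starts with Hist1h, Hist2h, Hist3h or Hist4h. By class the 67 were 6 genes for the linker histone H1, 18 for H2A, 18 for H2B, 12 for H3 and 13 for H4. By cluster, 54 belonged to Hist1 on chromosome 13, 10 to Hist2 on chromosome 3, 2 to Hist3 on chromosome 11 and 1 to Hist4 on chromosome 6. The group was put forward because several of its members were already known to be among the genes with the largest falls in the one comparison of the series. All differences between treatments within the group are therefore given as a description, with no test.

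Messenger RNA was sequenced from 10 tumours of B16F10, a mouse melanoma cell line, grown under the skin of C57BL6/J mice from 500000 injected cells. Each tumour received 1 injection of 80 µg of mRNA into the tumour and was collected at day 7. In the 5 control tumours (libraries 1 to 5) the mRNA encoded luciferase. In the 5 cytokine tumours (libraries 6 to 10) it was a mixture of 4 mRNAs at 20 µg each, coding for mouse single chain IL-12, IL-15sushi, GM-CSF and IFNalpha. The sources used here give neither the age nor the sex of the mice, and nothing in the labels gives a batch or pairs the tumours. The labels name a whole subcutaneous tumour, so each library mixes tumour cells with host cells.

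Histones package DNA: H2A, H2B, H3 and H4 form the nucleosome core, and H1 binds the DNA between nucleosomes. Most of their genes lie in clusters, have no introns and are used mainly in S phase, when new DNA has to be packaged. Their mRNAs are unusual in ending in a conserved stem-loop, bound by the protein Slbp, in place of a polyA tail. These libraries were made from polyA RNA, so the values cover only those histone transcripts that carried a polyA tail or were captured in another way, and which of these applies was not tested.

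The stem-loop was found by script in the transcripts of 46 of the 67 members (GENCODE release M21, build GRCm38), in each within the first 100 bases after the stop codon. The pattern searched, on the strand of the transcript, was a stem of 6 pairs that starts GGNNNT and ends ANNNCC, with G-T pairs allowed, around the 4-base loop TNTN. In 26 members the 16 bases were the same, and 8 forms occurred in all. Of 19894 other genes with at least 100 annotated bases after the stop codon, 5 (0.0251%) held the pattern there. The sites below are shown for members whose values are described further on, from the H1, H2A, H2B, H3 and H4 classes in that order, 5′ to 3′ in DNA letters, with the stem-loop in capitals.
Hist1h1c: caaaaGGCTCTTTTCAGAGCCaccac
Hist1h2ag: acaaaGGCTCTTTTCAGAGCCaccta
Hist3h2a: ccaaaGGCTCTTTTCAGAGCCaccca
Hist2h2ac: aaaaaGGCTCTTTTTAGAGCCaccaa
Hist1h2bj: ccaaaGGCTCTTTTCAGAGCCacgca
Hist1h3f: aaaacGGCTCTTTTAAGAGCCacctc
Hist1h3g: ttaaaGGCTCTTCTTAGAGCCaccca
Hist1h4a: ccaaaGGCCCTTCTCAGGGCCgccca
Hist1h4b: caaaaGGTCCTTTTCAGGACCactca
Hist1h4d: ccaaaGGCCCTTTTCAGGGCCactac
Hist4h4: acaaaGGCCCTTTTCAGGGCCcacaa
Hist1h1c, Hist1h2ag, Hist3h2a and Hist1h2bj held the most common form, while the H4 genes Hist1h4a, Hist1h4b, Hist1h4d and Hist4h4 had other stem bases. For 13 members the annotated transcript ended at the stop codon, so the site could not be looked for, and 8 others had bases after the stop codon without the pattern. Of these 8, Hist1h2af and Hist1h2ah had only 1 and 2 such bases, too few to hold the 16 bases. Hist2h3b and Hist1h1a had 37 and 48, so a site starting late in the range found (22 to 59) would be missed.

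Promoter sequences (RefSeq, build GRCm38.p6, 250 bases before to 50 after each gene start) were matched for 61 members. The CCAAT box, searched as CCAAT on both strands, was found in 52 of the 61 (85.2%) and in 37.4% of all 32851 promoters of the same length. It was in all 6 H1, 17 H2A, 16 H2B and 10 H3 promoters, and in 3 of 12 H4 promoters. The TATA box, searched as TATAAA on both strands, was found in 35 of 61 (57.4%) against 13.6% of all promoters. The octamer ATTTGCAT, the site known for H2B genes, was found on either strand in 13 of 61 (21.3%) against 1.74%. Those 13 were 7 of 17 H2A and 6 of 16 H2B promoters, with none in H1, H3 or H4. Some H2A and H2B genes start back to back, so their promoters overlap and 1 site can count for both genes. Hist1h2ae and Hist1h2bg, 175 bases apart, share 1 octamer in this way. A match is a description of the letters and not a tested site, and the 3 motifs were counted separately, overlapping matches included. The promoters below are shown for 1 H2A, 1 H2B and 1 H4 gene whose levels are described further on, with matches to the 3 motifs in capitals. Hist1h2ac lies on the minus strand and the other genes shown lie on the plus strand.
Hist1h2ac: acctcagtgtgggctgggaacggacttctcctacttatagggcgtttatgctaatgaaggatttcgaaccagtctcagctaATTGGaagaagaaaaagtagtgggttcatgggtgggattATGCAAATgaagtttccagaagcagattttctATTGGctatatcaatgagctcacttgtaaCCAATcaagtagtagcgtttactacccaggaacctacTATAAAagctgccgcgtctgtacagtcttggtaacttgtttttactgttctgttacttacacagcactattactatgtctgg
Hist1h2bj: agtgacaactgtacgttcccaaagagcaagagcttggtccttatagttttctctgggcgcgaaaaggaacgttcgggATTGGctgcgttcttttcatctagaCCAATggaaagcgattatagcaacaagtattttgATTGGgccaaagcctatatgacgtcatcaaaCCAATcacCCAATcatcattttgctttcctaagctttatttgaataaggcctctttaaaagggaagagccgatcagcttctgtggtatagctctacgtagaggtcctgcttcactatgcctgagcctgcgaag
Hist1h4d: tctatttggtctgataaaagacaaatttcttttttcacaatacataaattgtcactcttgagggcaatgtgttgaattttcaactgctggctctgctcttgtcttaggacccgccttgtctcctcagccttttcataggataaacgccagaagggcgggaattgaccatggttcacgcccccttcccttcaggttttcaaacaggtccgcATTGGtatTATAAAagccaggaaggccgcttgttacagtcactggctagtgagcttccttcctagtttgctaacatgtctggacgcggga

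Expression was read as TPM (transcripts per 1000000), a share of each library's total that is corrected for transcript length. Summed over the 67 members, the control tumours held 14020.3, 10846, 8606, 10599.8 and 9542 TPM in libraries 1 to 5. The cytokine tumours held 1065, 1912, 3129.9, 2303 and 8953 TPM in libraries 6 to 10. Cytokine libraries 6 to 9 lay well below every control, while library 10 lay inside the control range. The means were 10723 ± 2048 and 3472 ± 3152 TPM (SD, n = 5 each), 3.09-fold lower with cytokine mRNA. Without library 10 the cytokine mean was 2102 TPM, 5.10-fold lower, and without libraries 6 and 7 it was 4795 TPM, 2.24-fold lower. The members together made up 1.07% ± 0.205 of all TPM in control tumours and 0.347% ± 0.315 in cytokine tumours (SD, n = 5 each).

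**Figure D1:**
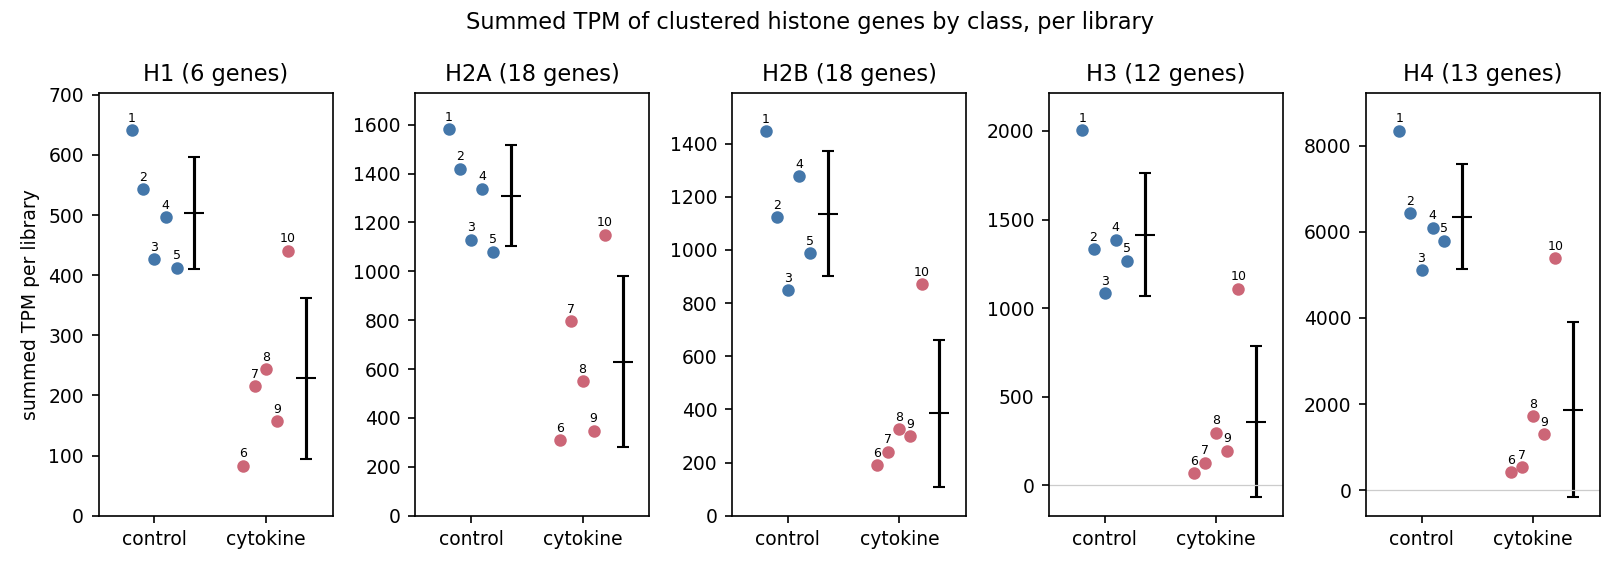
Summed TPM of the members of each histone class, 1 point per tumour, in the 5 control and the 5 cytokine libraries, with the mean and SD of each group beside the points and a y axis of its own for each class. In each class cytokine library 10 lies near or inside the control values, and H4 holds the largest sums.

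Levels were far from even among members. Of the 67, 24 had a control mean of at least 100 TPM, 9 lay between 20 and 100 TPM, and 34 were under 20 TPM, of which 10 were listed at 0 in all 10 libraries. The 21 most abundant members held 90% of the summed control TPM. For the 33 members at or above 20 TPM in controls, library 10 was the highest cytokine library in 31 and lay within the control range in 24. The lowest library was 6 or 7 in 32 of the 33, and control library 1 was the highest control in 27. Libraries 6 to 9 all lay under all 5 controls in 31 of the 33, beside 13.4% of all 12497 genes tested as described below. The H2A gene Hist1h2ak and the H2B gene Hist1h2bc were the exceptions. The 33 were picked by their control level, 1 side of the contrast, which favours lower cytokine values, so this count is a description only.

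To set the members beside all genes, log2(TPM + 1) was compared across the 12497 genes with at least 1 TPM in at least 5 libraries, using limma with Benjamini-Hochberg adjustment. Of the 67 members 52 passed this filter. By an adjusted p under 0.05, 20 of the 52 were called lower and 1, Hist1h2ak, higher, beside 3.02% of all genes called lower and 7.41% called higher. The members were put forward on this contrast, so these counts support nothing. The median log2 change of the 52 was -2.17, beside -0.18 for all genes tested, and 42 of the 52 were below 0, beside 60.3% of all genes. The 9 lowest log2 changes among the 12497 genes were all members, as were 16 of the lowest 20 and 28 of the lowest 100.

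The counts moved with single tumours. Without library 10, 33 members were called lower and 2 higher, beside 12.8% and 13.2% of all genes, and the median log2 change was -2.65. Leaving out control libraries 1 to 5 in turn left 8, 6, 9, 6 and 6 members called lower, and leaving out libraries 6 to 9 left 3, 13, 8 and 10. The share of all genes called in these fits is not given here. Without libraries 6 and 7 none was called in either direction by limma, and of all 12497 genes 1 (0.008%) was called lower and 19 (0.152%) higher. At an unadjusted p under 0.05, 32 members were then lower and 4 higher, beside 8.19% and 11.6% of all genes, and the median log2 change was -1.19. The values of all 5 control tumours lay above all 5 cytokine values for 9 members, beside 3.78% of all genes: Hist1h1d, Hist1h2ab, Hist1h2ag, Hist1h2bj, Hist1h3f, Hist1h3g, Hist1h4a, Hist1h4d and Hist1h4f. The opposite order was seen for 1, the H2B gene Hist1h2bf, beside 5.45% of all genes, at 0 to 1.88 TPM in controls and 2.84 to 6.04 TPM in cytokine tumours.

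**Figure D2:**
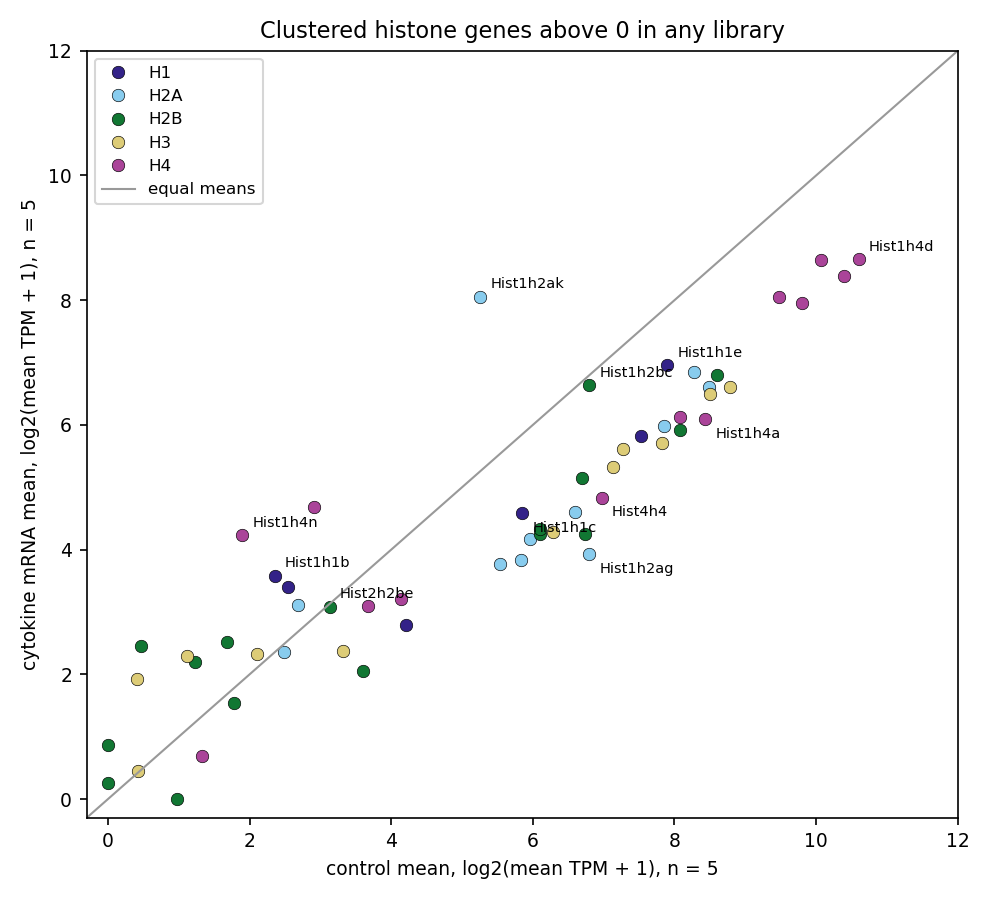
Mean level of each member above 0 in any library, in control tumours (x axis) and cytokine tumours (y axis), both as log2(mean TPM + 1) with n = 5, coloured by histone class, with a line of equal levels. Members at 20 TPM or more in controls lie under the line except Hist1h2ak, while members at lower levels lie on both sides. The cut is on the control mean, which is the x axis, so it favours this split.

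Of the 34 members under 20 TPM in controls, 19 passed the filter, and their median log2 change was -0.03. None was called by limma in either direction, beside 3.02% of all genes called lower and 7.41% called higher. At an unadjusted p under 0.05, 2 of the 19 were lower and 3 higher, beside 16.1% and 14.4% of all genes tested, so these shares were near the background. Of the 15 members with a higher mean in cytokine tumours, 14 were in this low group. The cut was made on the control mean, 1 side of the contrast. It favours falls in members above 20 TPM and rises in those below, and no cut on the mean over all libraries was made. On the log2(TPM + 1) scale the changes of such low genes are understated.

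The H4 genes code for the most conserved core histone and held the most transcript. Their sum was 6357 ± 1215 TPM in control and 1870.1 ± 2036 TPM in cytokine tumours (SD, n = 5 each), and 992 TPM without library 10. H4 made up 59.3% of the members' TPM in controls and 53.9% in cytokine tumours. Of 13 H4 genes tested, 5 were called lower, beside 3.02% of all genes, and the median log2 change was -2.20.

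Hist1h4d, the most abundant member, measured 2164, 1455, 1372, 1357 and 1401 TPM in control libraries 1 to 5. It measured 126, 189, 285, 249 and 1168 TPM in cytokine libraries 6 to 10. The groups did not overlap, though library 10 lay close to the lowest control, and the log2 change was -2.40 ± 0.49 (SE).
Hist1h4b measured 1740.3, 1394, 1024, 1269 and 1307 TPM in controls and 10.1, 8.08, 306, 192 and 1154 TPM in cytokine tumours. Libraries 6 and 7 lay far under every control, and library 10 fell inside the control range. The log2 change of -3.84 ± 1.17 was the second lowest of all genes tested.
Hist1h4c measured 1337, 1148, 876, 1103 and 913 TPM in controls and 130.1, 29.9, 527, 316 and 983 TPM in cytokine tumours. The order of the cytokine libraries was that of Hist1h4b, with a log2 change of -2.20 ± 0.75. Hist1h4a fell from 344 ± 83.7 to 67.5 ± 103 TPM (SD, n = 5 each), with 2.47 and 5.23 TPM in libraries 6 and 7 and 249 TPM in library 10.

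Outside Hist1, the Hist2 gene Hist2h4 measured 768, 871, 512, 785 and 629 TPM in controls and 70.6, 134, 182, 221 and 718 TPM in cytokine tumours. Hist4h4, the only member of its cluster, measured 130.9, 165, 90.5, 123 and 112 TPM in controls and 0.807, 6.12, 13.4, 18.3 and 99.3 TPM in cytokine tumours. In both, libraries 6 to 9 lay under all controls and library 10 among them. The low H4 gene Hist1h4m went the other way in means. It was at 6.50 ± 5.33 TPM in controls and 24.6 ± 21.1 TPM in cytokine tumours (SD, n = 5 each), listed at 0 in library 6 and at 50.3 TPM in library 7, and it was not called.

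The H3 genes, whose protein carries many of the studied histone marks, summed to 1415 ± 348 TPM in control and 359 ± 428 TPM in cytokine tumours (SD, n = 5 each). Without library 10 the cytokine mean was 171 TPM, 8.26-fold lower than control. Of 9 H3 genes tested 5 were called lower, beside 3.02% of all genes, with a median log2 change of -2.32. Hist2h3b measured 604, 419, 314, 413 and 459 TPM in controls and 16.5, 10.1, 41.6, 60.4 and 355 TPM in cytokine tumours. Library 10 was again inside the control range and the other 4 cytokine libraries far under it.
Hist1h3g measured 533, 368, 286, 341 and 286 TPM in controls and 0, 44.8, 109.9, 29.3 and 264 TPM in cytokine tumours. Hist1h3f measured 321, 207, 170.5, 232 and 199 TPM in controls and 8.58, 7.68, 38.2, 34.3 and 168 TPM in cytokine tumours. Neither gene's groups overlapped, with library 10 just under the lowest control in each. The remaining Hist2 genes of the class were low: Hist2h3c1 was at 1.17 ± 0.688 and 3.89 ± 4.54 TPM, and Hist2h3c2 at 0.338 ± 0.620 and 0.372 ± 0.562 TPM, in control and cytokine tumours (SD, n = 5 each).

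The H2A genes summed to 1310.0 ± 207 TPM in control and 631 ± 349 TPM in cytokine tumours (SD, n = 5 each), a smaller distance than for H3 and H4. Of 11 tested, 5 were called lower and 1 higher, beside 3.02% and 7.41% of all genes, and the median log2 change was -2.86. With all 18 genes the sum was 2.08-fold lower with cytokine mRNA. Without Hist1h2ak the other 17 summed to 1273 ± 202 and 365 ± 419 TPM, 3.48-fold lower, and to 183 TPM in cytokine tumours without library 10.
Hist1h2ak measured 43.6, 34.8, 57.6, 42.1 and 7.97 TPM in controls and 209.5, 721, 246, 93.7 and 55.3 TPM in cytokine tumours. Library 7 was the highest cytokine library and library 10 the lowest, inside the control range. In most abundant members library 10 was the highest cytokine library and library 6 or 7 the lowest. It made up 90.6% of H2A TPM in library 7, 67.9% in library 6, 4.81% in library 10 and 0.737% to 5.09% in controls. Its log2 change was 2.49 ± 0.68.

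Hist1h2ag had the lowest log2 change of all genes tested, -4.16 ± 0.98. It measured 241, 86.2, 80.5, 71.2 and 69.8 TPM in controls and 0, 0, 9.19, 7.56 and 54.1 TPM in cytokine tumours. Control library 1 stood far above the other controls, and the groups did not overlap. Hist2h2ac measured 304, 459, 247, 452 and 319.8 TPM in controls and 13.7, 39.3, 67.2, 64.3 and 297 TPM in cytokine tumours.
Hist3h2a, one of the pair in the small Hist3 cluster, was at 308 ± 49.7 TPM in control and 115 ± 118 TPM in cytokine tumours (SD, n = 5 each), with 316 TPM in library 10. Hist2h2ab was at 56.2 ± 11.6 and 13.3 ± 19.5 TPM, listed at 0 in libraries 6 and 7. Its Hist2 neighbours Hist2h2aa1 and Hist2h2aa2 were listed at 0 in all 10 libraries, as was the testis gene Hist1h2aa.

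The H2B genes summed to 1137 ± 234 TPM in control and 385 ± 277 TPM in cytokine tumours (SD, n = 5 each), and 263 TPM without library 10. Of 13 tested, 4 were called lower, beside 3.02% of all genes, and the median log2 change was -1.73. Hist1h2bg measured 388, 230.0, 193, 281 and 259 TPM in controls and 11.0, 6.49, 44.8, 42.6 and 194 TPM in cytokine tumours. Hist2h2bb measured 403, 429, 251, 507 and 342 TPM in controls and 63.4, 42.8, 75.3, 74.3 and 297 TPM in cytokine tumours. Both had library 10 among the controls and the other cytokine libraries under them.
Hist1h2bj measured 177, 101, 78.9, 105 and 68.0 TPM in controls and 5.72, 3.30, 21.5, 8.39 and 51.5 TPM in cytokine tumours. Its groups did not overlap, and the log2 change was -3.00 ± 0.59.

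Hist1h2bc was the one abundant H2B gene with little difference. It measured 136, 109.7, 109.2, 105 and 91.8 TPM in controls and 73.7, 146, 76.4, 95.3 and 101 TPM in cytokine tumours. The groups overlapped throughout, and the log2 change was -0.20 ± 0.22. Hist1h2bc and Hist2h2be are known for polyadenylated transcripts in cells that do not divide, and Hist1h1c likewise has a known polyadenylated form. Hist2h2be was at 7.76 ± 3.28 TPM in control and 7.49 ± 2.45 TPM in cytokine tumours (SD, n = 5 each), with a log2 change of -0.03 ± 0.31 that took the other sign under some settings. The Hist3 gene Hist3h2ba was at 0.383 ± 0.587 and 4.50 ± 3.79 TPM, highest in libraries 6 and 7 at 7.88 and 8.96 TPM. Hist1h2ba, a testis gene, was above 0 in library 6 alone, at 4.16 TPM.

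The H1 genes summed to 504 ± 92.9 TPM in control and 228 ± 134 TPM in cytokine tumours (SD, n = 5 each), and 175 TPM without library 10. All 6 were tested, 1 was called lower, beside 3.02% of all genes, and the median log2 change was -1.37. Hist1h1e measured 283, 268, 196, 252 and 189 TPM in controls and 53.2, 156, 122, 79.8 and 206 TPM in cytokine tumours. Hist1h1d measured 252, 198, 154, 163 and 148 TPM in controls and 17.6, 17.1, 60.0, 36.7 and 146 TPM in cytokine tumours. Hist1h1d had groups that did not overlap and a log2 change of -2.14 ± 0.51, while Hist1h1e had library 10 inside the control range and a log2 change of -1.07 ± 0.34.
Hist1h1c measured 69.9, 55.9, 54.9, 45.8 and 57.4 TPM in controls and 3.77, 10.0, 26.7, 24.4 and 50.3 TPM in cytokine tumours, with a log2 change of -1.67 ± 0.53. Unlike Hist1h2bc and Hist2h2be, it was under all controls in libraries 6 to 9. Hist1h1b, low throughout, was at 4.11 ± 3.20 TPM in control and 11.0 ± 6.46 TPM in cytokine tumours (SD, n = 5 each). The testis linker histone gene Hist1h1t was at 17.5 ± 7.03 TPM in control tumours and at 0 to 2.94 TPM in libraries 6 to 9, with 23.9 TPM in library 10.

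By cluster, the Hist1 genes summed to 8327 ± 1781 TPM in control and 2732 ± 2366 TPM in cytokine tumours. The Hist2 genes summed to 1963 ± 365 and 594 ± 642 TPM, the Hist3 genes to 308 ± 49.7 and 119 ± 115 TPM, and Hist4h4 to 124 ± 27.5 and 27.6 ± 40.6 TPM (SD, n = 5 each). Of tested genes, 13 of 42 in Hist1 and 5 of 7 in Hist2 were called lower, beside 3.02% of all genes. Median log2 changes in Hist1 and Hist2 were -2.21 and -2.13. The summed level was lower with cytokine mRNA in each of the 4 clusters.

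Along chromosome 13 the Hist1 genes fell into 4 blocks separated by gaps of over 100000 bases, a division made after the values were seen. The 18 genes of the block from Hist1h2bl to Hist1h2br had a median control mean of 1.23 TPM, and 6 of them were at 0 in all libraries. Their sum was 79.2 ± 40.8 TPM in control and 341 ± 310 TPM in cytokine tumours (SD, n = 5 each), of which Hist1h2ak, at 265 TPM, was the main part. The 5 genes of the next block, which holds Hist1h2ag and Hist1h2bj, summed to 284 ± 151 and 55.6 ± 62.4 TPM. The 29 genes of the large block held 22 of the members at 20 TPM or more and summed to 7964 ± 1614 and 2334 ± 2450 TPM. The pair of testis genes Hist1h2ba and Hist1h2aa formed the last block.

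**Figure D3:**
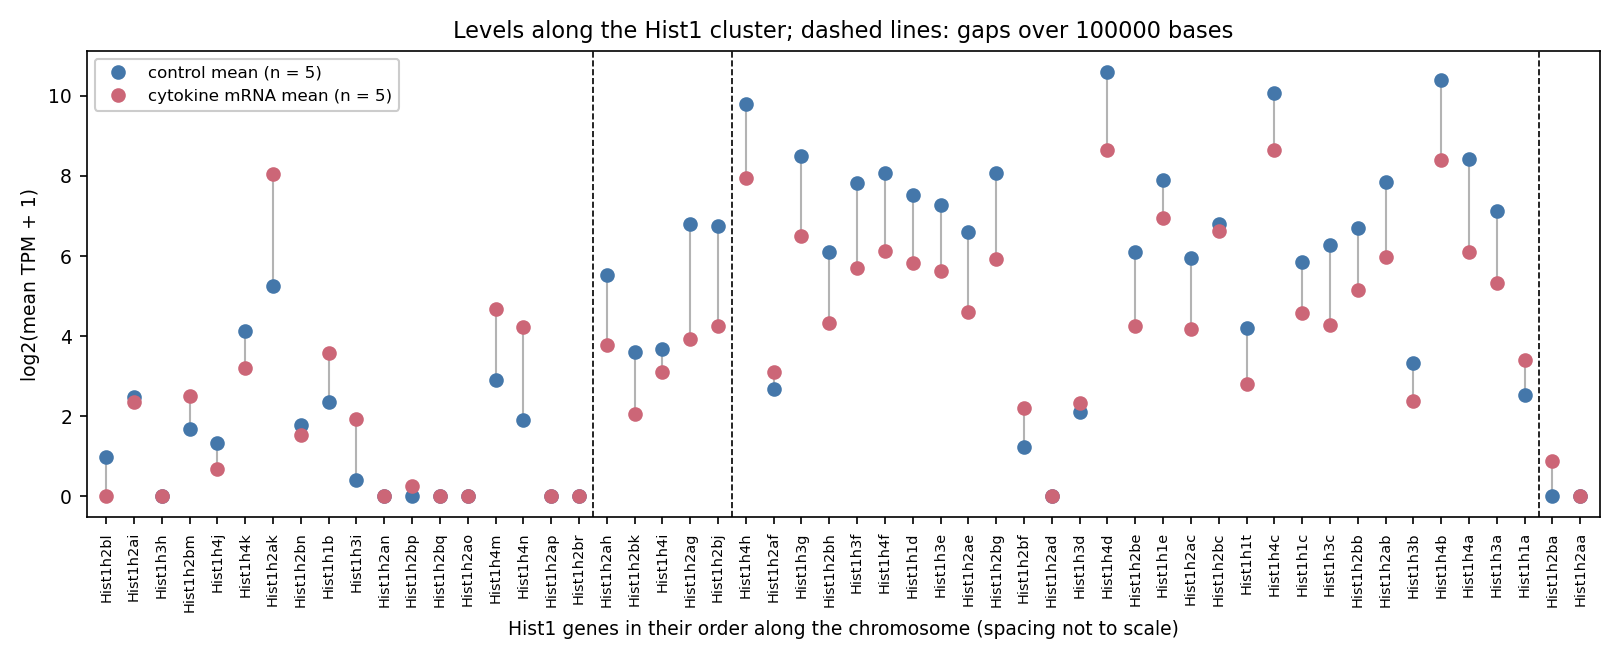
Mean level of the 54 Hist1 genes in control and cytokine tumours, in their order along chromosome 13 (x axis, rank and not distance), with the y axis as log2(mean TPM + 1). The genes from Hist1h2bl to Hist1h2br are low in both groups apart from Hist1h2ak, and the high genes sit in the large block.

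Near-identical copies limit these values. The share of 50-base windows of a member's transcripts found in no other gene's transcripts on the same strand (GENCODE M21) had a median of 8.77% in the 10 members at 0. It was 59.6% in the 33 members at 20 TPM or more and 38.0% in the other 24. In the block from Hist1h2bl to Hist1h2br the median was 13.9%, and in the large block 59.6%. Hist2h2aa2 had no such window and Hist2h2aa1 had 10.6%. How reads shared between copies were counted is not given in the sources used here. Members with few such windows are therefore uncertain as single genes, among the abundant ones Hist1h2ah (9.27%), Hist2h3b (20.3%) and Hist1h2ag (21.1%). Class sums depend less on how shared reads were split between copies of the same class. If shared reads were left out of the counts, the class sums lack them too.

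Annotated ends differed too, and the counts by end stand beside 3.02% of all genes called lower and 7.41% called higher. Of the 23 members whose annotation ends within 100 bases of the stem-loop, 17 were tested and 6 called lower, with a median log2 change of -2.33. Of the 23 whose annotation runs more than 100 bases past it, 22 were tested and 11 called lower, with a median of -2.24. Of the 21 without a stem-loop in their annotation, 13 were tested, 3 called lower and 1 higher, with a median of -0.40. The 3 kinds held different shares of low genes: 11, 16 and 6 of their tested members were at 20 TPM or more in controls, with medians of -3.00, -2.51 and -2.49. The 6 of the last kind were Hist1h2ah, Hist2h2ab, Hist2h3b and Hist2h2bb, at -2.13 to -3.33, with Hist1h2ak and Hist1h2bc. The other 7 tested had a median of -0.03. Hist1h2ak was of the last kind, annotated as coding sequence only, with 47.7% of its windows found in no other gene. Hist1h2bc belonged to it too, with 742 annotated bases after the stop codon and no stem-loop. The Hist1h2ag and Hist3h2a sites printed above are both of the common form, although those genes had log2 changes of -4.16 and -1.96.

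Histone genes often start back to back on opposite strands, and 13 such pairs with starts under 1000 bases apart were found among the members. Hist1h2ag and Hist1h2bj, 269 bases apart, moved alike, from 109.7 to 14.2 TPM and from 106 to 18.1 TPM. Hist1h2ac and Hist1h2bc, 250 bases apart, did not: the first went from 61.4 to 17.1 TPM and the second from 110.3 to 98.4 TPM. Hist2h2ac and Hist2h2be, 238 bases apart, likewise went from 356 to 96.3 TPM and from 7.76 to 7.49 TPM. Hist1h2ak and Hist1h2bn, 295 bases apart, went from 37.2 to 265 TPM and from 2.44 to 1.90 TPM. These are group means with no test of the difference within a pair.

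Some histone genes outside the clusters supply histones through the whole cell cycle, and the list used here was not split by this. Of 11 listed, 10 were tested by limma. At an adjusted p under 0.05, 3 were lower and none higher, beside 3.02% and 7.41% of all genes. At an unadjusted p under 0.05, 6 were lower and none higher, beside the same 16.1% and 14.4% of all genes. H2afx, the variant marked at DNA breaks, fell from 229 ± 30.7 to 61.5 ± 85.3 TPM (SD, n = 5 each; limma adjusted p = 0.0385). Without library 10 its cytokine mean was 24.4 TPM. H2afz, an H2A variant found at gene starts, fell from 22.5 ± 5.76 to 6.13 ± 7.09 TPM (limma adjusted p = 0.0419). Cenpa, the H3 variant of the centromere, fell from 67.7 ± 10.1 to 26.5 ± 15.1 TPM (limma adjusted p = 0.0208). Calls for H2afx and H2afz were lost in 9 of the 10 fits that left out 1 library, in all but the fit without library 10, and that for Cenpa in the fit without control library 2. Without library 10, 6 of the 10 were called lower, beside 12.8% of all genes. None was called lower without control library 2, and 1 was in each of the other 8 such fits. H3f3b, coding for the replacement histone H3.3, was at 608 ± 46.8 and 354 ± 229 TPM and H3f3a at 376 ± 90.0 and 198 ± 127 TPM. The linker histone gene H1f0 was at 214 ± 46.7 and 120.5 ± 74.6 TPM. None of these 3 passed the test (limma adjusted p = 0.134, 0.131 and 0.131), though without library 10 all did (0.0372, 0.0466 and 0.0452).

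A list of 16 genes covers the transcription, end processing and decay of histone mRNA. None of the 16 passed limma's adjusted test in either direction, beside 3.02% of all genes called lower and 7.41% called higher. At an unadjusted p under 0.05, 5 were lower and 1 higher, beside 16.1% and 14.4% of all genes, and the median log2 change was -0.31. Without library 10, 4 were called lower and 1 higher, beside 12.8% and 13.2% of all genes. Slbp, the stem-loop binding protein, was at 57.9 ± 17.2 TPM in control and 48.8 ± 9.37 TPM in cytokine tumours (SD, n = 5 each; limma adjusted p = 0.552). Npat, the histone gene activator, was at 34.1 ± 11.0 and 22.9 ± 8.10 TPM (limma adjusted p = 0.205), and Casp8ap2, a partner in histone gene activity, at 49.6 ± 9.29 and 29.6 ± 16.2 TPM (limma adjusted p = 0.0939). Lsm10 and Lsm11, of the particle that cuts histone mRNA, had limma adjusted p values of 0.470 and 0.139. For Srrt, Sympk and Cpsf3, the most abundant of the list, they were 0.136, 0.234 and 0.596.

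Of 17 histone chaperone and import genes tested, limma called 3 lower and 1 higher, beside 3.02% and 7.41% of all genes. At an unadjusted p under 0.05, 10 were lower and 1 higher, beside 16.1% and 14.4% of all genes. The median log2 change was -0.78. Chaf1a, the large subunit of the factor that deposits histones behind the replication fork, fell from 30.4 ± 5.06 to 11.0 ± 6.20 TPM (SD, n = 5 each; limma adjusted p = 0.0168). Its partner Chaf1b fell from 44.7 ± 6.49 to 17.9 ± 13.3 TPM (limma adjusted p = 0.0290). Daxx, which with Atrx deposits H3.3, rose from 15.5 ± 5.11 to 39.3 ± 13.9 TPM (limma adjusted p = 0.0284). With 1 library left out, the call for Chaf1a was lost without library 6 only. That for Chaf1b held only without control library 1 or library 10, and that for Daxx only without control library 4 or library 10. Over the list, 10 genes were called lower without library 10, beside 12.8% of all genes. None was called lower without library 6, and 1 or 2 were in the other 8 fits. The abundant Nasp, Atrx and Ipo4 did not pass (limma adjusted p = 0.0695, 0.179 and 0.628).

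Of the 25 S phase genes listed, 23 were tested and the other 2 are not analysed here. At an adjusted p under 0.05 limma called 15 of the 23 lower and none higher, beside 3.02% and 7.41% of all genes. At an unadjusted p under 0.05, 19 were lower and none higher, beside 16.1% and 14.4% of all genes. The median log2 change was -1.25. Tk1, which salvages thymidine for DNA synthesis, fell from 129 ± 22.6 to 36.4 ± 41.0 TPM (SD, n = 5 each; limma adjusted p = 0.0244). Tyms, which makes thymidylate, fell from 93.3 ± 7.87 to 34.3 ± 34.3 TPM (limma adjusted p = 0.0359). Ccne2, a cyclin of S phase entry, fell from 55.4 ± 29.6 to 17.5 ± 15.3 TPM (limma adjusted p = 0.0428), and Pcna, the replication clamp, from 190.4 ± 13.3 to 96.1 ± 59.9 TPM (limma adjusted p = 0.0476). Rrm1, a subunit of ribonucleotide reductase, fell from 215 ± 19.6 to 104 ± 58.3 TPM (limma adjusted p = 0.0359), while the kinase gene Cdk2 did not pass (limma adjusted p = 0.255). The count moved with single libraries: without control libraries 1 to 5 in turn 3, 0, 3, 0 and 3 genes were called lower, and without libraries 6 to 10 in turn 0, 5, 0, 0 and 18. Of all genes, 12.8% were called lower without library 10.

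**Figure D4:**
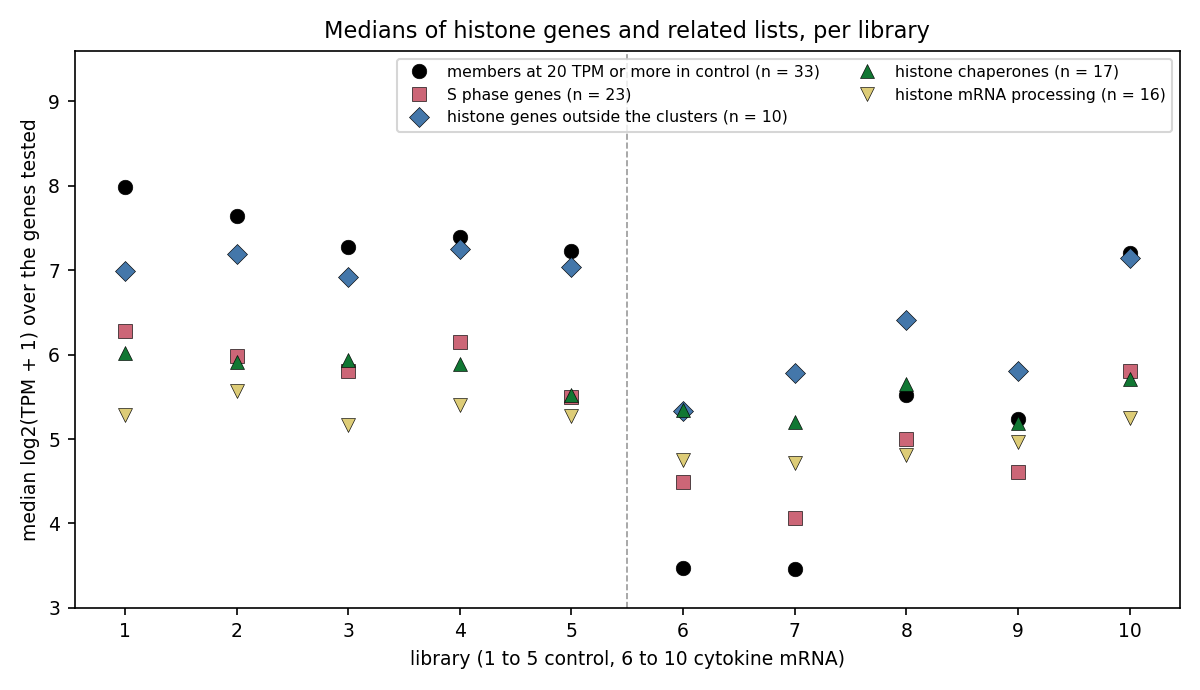
Median log2(TPM + 1) of the genes of each list in each library, for the 33 members at 20 TPM or more in controls, the histone genes outside the clusters, the S phase genes, the chaperones and the histone mRNA processing genes. The members run from 7.22 to 7.99 in controls and from 3.46 to 5.52 in libraries 6 to 9, with 7.20 in library 10. They were picked by their control level and the other lists were not, so the sizes of the falls are not comparable.

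The same libraries were low for the members and for related lists. On the log2(TPM + 1) scale the median of the 33 abundant members was 7.22 to 7.99 in controls, 3.46 to 5.52 in libraries 6 to 9 and 7.20 in library 10. The S phase median was 5.50 to 6.28 in controls, 4.06 to 5.00 in libraries 6 to 9 and 5.80 in library 10. The median of histone genes outside the clusters was 6.91 to 7.25, 5.34 to 6.41 and 7.14, and that of the processing genes 5.17 to 5.57, 4.71 to 4.97 and 5.25. Libraries 6 to 9 were under all controls for both sets of members and for each of these lists. Library 10 lay inside the control range for these lists and below the lowest control for both sets of members. For the chaperones, whose medians were 5.52 to 6.02 in controls and 5.19 to 5.66 in libraries 6 to 9, the ranges overlapped.

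Some other features of the libraries differed between the groups too. The summed TPM of 5 T cell markers was 0.610 to 16.1 in control and 32.7 to 1861 in cytokine tumours, and all 5 had a higher cytokine mean. Cd3d, Cd3g, Cd4 and Cd8a were at 0 in at least 1 control library. The sum of 5 macrophage and monocyte markers was 117 to 330 TPM in control and 467 to 5695 TPM in cytokine tumours, with library 10 the lowest cytokine library for both lists and library 7 the highest. All 5 of these had a higher cytokine mean too. All cytokine values lay above all control values for 1 of these 5 and for 4 of the 5 T cell markers, beside 5.45% of all genes. The sum of 6 melanocyte markers, which the tumour line should hold, was 2037 to 15870.5 TPM in control and 39.7 to 16277 TPM in cytokine tumours, lowest in library 7 and, among controls, in library 1. This sum followed the members in some libraries and not in others. Libraries 2 to 5 and 10 were high in both, at 13297 to 16277 TPM of melanocyte markers. Libraries 6, 7 and 8 were low in both, at 5893, 39.7 and 3732 TPM of these markers. In library 1, by contrast, the members were at their highest, and in library 9, at 13771 TPM of melanocyte markers, they were low. Mitochondrially encoded genes took 16.2% to 27.9% of TPM in controls and 4.44% to 13.1% in libraries 6 to 9, with 19.2% in library 10. Chemosensory receptor genes above 0, which a tumour should not use, numbered 14 to 24 in controls, 279 in library 7 and 22 to 43 in the other cytokine libraries. The part of each of these in the lower histone values was not tested. In these bulk tumours, fewer dividing tumour cells and less histone mRNA per cell cannot be told apart.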

How the data were processed

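The authors deposited 1 table of TPM, 1 value per gene symbol and tumour, each tumour scaled to 1000000. Per the labels' protocols, total RNA was treated with DNase, polyA RNA was used and libraries were stranded (NuGEN). Per the submitters' processing notes, reads were aligned with STAR to GRCh38, which is a human build, so no coordinates are printed. The annotation, the counting and the TPM program were not given in the sources used here. Depth is lost in TPM, so it and its counting error are unknown, and a gene listed at 0 may be unexpressed or missed.

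Libraries were grouped by title and numbered as there, 1 to 5 control and 6 to 10 cytokine. The design gives 5 tumours per group, so each library was taken as a separate tumour. No table column was left unmapped. Values were compared as log2(TPM + 1) (pseudocount 1) over 12497 genes with at least 1 TPM in at least 5 libraries, with limma 3.58.1 in R 4.3.3 (eBayes with trend, 2-sided, Benjamini-Hochberg over all genes, threshold 0.05), tested on simulated data. Changes on this scale understate those of low genes. Sums, motifs and figures used Python 3.11.15 and pandas 2.3.3. Members, lists and tests were chosen with earlier results of these data known.

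Named members were, per class, the 3 highest in mean TPM over all libraries, the 2 lowest and the 1 highest log2 change, all of Hist2, Hist3 and Hist4, and members with known polyadenylated or testis transcripts. From each list the 3 most abundant genes and up to 3 called genes with the largest change were named, with Slbp, Npat, Casp8ap2, Lsm10 and Lsm11. Other members named, among them Hist1h2ab, Hist1h2ac, Hist1h2ah, Hist1h2bf, Hist1h2bn and Hist1h4f, were chosen after their values were seen. Alternatives were pseudocounts of 0.1 and 5, no filter or a filter at 5 TPM, a median-ratio scaling, a rescaling without mitochondrial genes, library quality weights, each library left out in turn, and libraries 6 and 7 left out together.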

Additional observations from a re-analysis of the deposited data

Results flagged for a closer look

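In groups of 5, a library is listed here where its gap to the nearest other library was over 0.71 of the group's whole range (Dixon's 95% limit). Chance flags about 1 in 20 groups, and 126 group checks gave 38 flags. The checks were not independent: sums and the members in them were both checked, in the same 10 libraries. Of the 38 flags, 28 were of library 10, so they are not 38 separate results.

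Cytokine library 10 stood above the other 4 cytokine libraries in 28 of these. They were the sums in TPM of all members (8953), H2B (871), H3 (1109), H4 (5382), Hist2 (1726), Hist3 (317) and Hist4 (99.3). Single members were, in TPM, Hist1h1t 23.9, Hist1h2ag 54.1, Hist1h2bg 194, Hist1h3f 168, Hist1h4a 249, Hist1h4b 1154 and Hist1h4d 1168. In the smaller clusters they were Hist2h2ab 47.0, Hist2h2ac 297, Hist2h2bb 297, Hist2h3b 355, Hist2h4 718, Hist3h2a 316 and Hist4h4 99.3 TPM. Outside the clusters they were Casp8ap2 57.5, Ccne2 43.8, H2afx 210.0, Pcna 199, Rrm1 203, Tk1 108 and Tyms 93.6 TPM.

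Control library 1 stood apart in 6: the Hist1 sum at 11388 TPM, Ccne2 at 106, Hist1h2ag at 241, Hist1h4a at 489 and Hist1h4d at 2164 TPM, all high, and Cdk2 at 100.9 TPM, low. The last 4 were Cpsf3 at 154 TPM in control library 3, Hist2h2be at 13.4 TPM in control library 4, Npat at 53.6 TPM in control library 5 and Hist1h2ak at 721 TPM in cytokine library 7.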

How the results depend on the processing

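The count of members called lower was 20. It was 11 with no filter, 33 with quality weights and 0 without libraries 6 and 7, where the median log2 change was -1.19 against -2.17. Members called higher numbered 1, and 0, 3 and 0 under the same settings. S phase genes called lower numbered 15, and 9 with a pseudocount of 0.1, 3 with no filter and 0 without libraries 6 and 7. Chaperones called lower numbered 3, and 5 with a pseudocount of 5, 9 without mitochondrial genes, 8 with quality weights and 0 without libraries 6 and 7, where the 1 called higher was also lost (0). Histone genes outside the clusters called lower numbered 3, and 1 with no filter and 0 without libraries 6 and 7. Processing genes called lower numbered 0, and 1 without mitochondrial genes and 4 with quality weights. Those called higher numbered 0, and 1 with median-ratio scaling and 1 with quality weights. Of all genes, 3.02% were called lower and 7.41% higher in the main fit, and 0.008% and 0.152% without libraries 6 and 7. For the other settings these shares are not given here, so the counts are not read as changes in these genes alone. The cause of these shifts was not tested.

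With 1 library left out, members called lower ranged from 3 to 33 and higher from 0 to 2, the median from -2.65 to -1.84, and the log2 ratio of summed TPM from -2.35 to -1.40 against -1.63. Lower and higher calls ranged from 0 to 10 and 0 to 1 for chaperones, 0 to 4 and 0 to 1 for processing genes, 0 to 6 and 0 to 0 for histone genes outside the clusters, and 0 to 18 and 0 to 0 for S phase genes. Among these fits the share of all genes called is given only for that without library 10, at 12.8% lower and 13.2% higher.

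Hist2h2be, at a log2 change of -0.03, turned to 0.12 (median-ratio) and 0.015 (without libraries 6 and 7), and ran from -0.16 to 0.17 with 1 library left out, above 0 without control library 4 (0.17), library 6 (0.03) or library 8 (0.13). Ipo4, at -0.23, turned to 0.0548 (quality weights) and 0.25 (without libraries 6 and 7). No other gene named by the stated rule changed sign under the alternatives run, which did not cover members named outside it. No paired analysis was possible because the groups share no replicate numbers. Unknown depth limits all members at low values.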
